A study of Mus musculus with 2 samples.

Results

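The cells described here are the CA1-like pyramidal neurons of the hippocampus of mice homozygous for the knock-in allele Pigv341E and of wild-type controls, 2094 cells among the 15930 of the study. A cell was taken as CA1-like when at least 3 of the 7 genes Fibcd1, Gm10754, Gm2115, Galntl6, Man1a, Mpped1 and Wfs1 had a value of at least 2 in it. In addition Prox1, a gene of dentate granule cells, had to be below 2, Gad1 and Gad2, the enzymes of GABA synthesis, had to sum to at most 2, and Zbtb20 had to be at 2 or more. Of the 7094 wild-type cells, 968 met the rule, which was 13.6% (12.9 to 14.5%). Of the 8836 knock-in cells, 1126 met it, or 12.7% (12.1 to 13.5%). The intervals are exact Clopper-Pearson 95% intervals, overlapped, and cover counting error only. Before the Zbtb20 requirement, the last step of the rule, the shares were in the opposite order, at 15.4% and 16.0%, so no order is read from them. CA3-like cells, chosen in the same way from CA3 markers among cells outside the CA1-like rule, made up 5.99% of wild-type and 6.00% of knock-in cells. Cells that met both rules, 54 wild-type and 65 knock-in, were counted as CA1-like only. Of these CA3-like cells, 25.2% (wild-type) and 27.7% (knock-in) also had at least 3 of 8 dentate granule markers at 2 or more. In CA1-like cells the shares were 3.20% and 3.64%. Levels given below for CA3-like cells include such cells.

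CA1 pyramidal neurons are the excitatory output neurons of the hippocampus proper. They receive the Schaffer collaterals of CA3 on dendrites rich in AMPA and NMDA receptors, and their synapses are the textbook site of long-term potentiation. Their dorsal and ventral members differ in gene use and in their targets, with Wfs1 known as a gene of dorsal CA1 and Dcn of ventral CA1. Pigv encodes a mannosyltransferase that acts while the glycosylphosphatidylinositol (GPI) anchor is built on the membrane of the endoplasmic reticulum, and many surface proteins of neurons, among them netrin-G1, contactins and the ephrin-A ligands, are held by that anchor.

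Mice of both groups were of the strain given as C57Bl.6/J, and the labels state no age. Hippocampal cells were freed mechanically in the cold, and those of 4 mice (8 hippocampi) were pooled for each genotype. Each pool became 1 library of the 10x Genomics droplet system, version 3. With 1 library per genotype there was no replicate, genotype and library cannot be told apart, and no difference below carries a test or a p-value. The groups are called wild-type and knock-in library, and "higher" and "lower" compare these 2 libraries. The deposited values are whole numbers already corrected for depth, so the sequencing depth of a cell was unknown. A level is the summed value of a gene in a class of cells, per 10000 of the summed values of all genes in those cells. A log2 ratio is the knock-in over the wild-type level with 0.1 added to both. Levels are not corrected for the length of a gene or its capture, so they are compared between cells and libraries and not between genes.

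The median total per CA1-like cell was 9934.5 (wild-type) and 9966.5 (knock-in), with 4142 and 4280 detected genes. When the depth-corrected values of each cell were thinned at random to a total of 4000, the medians were 2215 and 2268 genes. This thinning cannot match the sequencing depth of cells, since the values had already been corrected for it. Scrublet called 15 wild-type (1.55%) and 46 knock-in (4.09%) of the CA1-like cells doublets, and they were kept. Over all cells it called 61 of 7094 (0.86%) and 209 of 8836 (2.37%). The libraries shared 28 cell barcodes, and 8 CA1-like cells carried one of them.

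The 7 genes of the rule define the cells, and their values are given as a description. Galntl6, a member of the family of enzymes that start O-linked glycosylation, had levels of 52.0 (wild-type) and 54.3 (knock-in), against 3.41 and 3.66 in CA3-like cells and 1.27 and 1.40 in dentate granule-like cells. The quartiles of Galntl6 per cell were 31 and 71 in wild-type cells and 33 and 73 in knock-in cells. Man1a, a Golgi mannosidase that trims N-linked glycans, was at 8.20 and 8.54. The long noncoding RNA Gm10754 was at 4.48 and 4.40, Gm2115 at 2.54 and 2.71, and Mpped1, a metallophosphoesterase gene, at 2.22 and 2.36. Fibcd1, a receptor gene with a fibrinogen-like domain, was at 1.21 and 1.27. Each of these 6 genes had a level in the knock-in library within a log2 ratio of 0.10 of the wild-type one. Wfs1, the gene of the endoplasmic reticulum protein wolframin, stood at 0.63 and 0.48, a log2 ratio of -0.32.

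Promoters are shown for 2 of the rule's genes, the 2 of the 7 whose start in RefSeq coincides with the end of the GENCODE gene. They are the 250 bases before the start, on the minus strand, with matches to CANNTG on either strand in capitals. CANNTG is the E-box, the motif bound by basic helix-loop-helix factors such as Neurod2 and Neurod6. Sequences are from RefSeq on GRCm38.p6.
Fibcd1, chr2:31846006-31846255: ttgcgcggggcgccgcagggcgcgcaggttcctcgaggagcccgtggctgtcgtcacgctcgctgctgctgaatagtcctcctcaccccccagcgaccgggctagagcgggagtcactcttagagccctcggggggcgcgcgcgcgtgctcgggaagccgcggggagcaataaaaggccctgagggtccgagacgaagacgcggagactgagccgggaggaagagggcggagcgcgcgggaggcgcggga
Gm10754, chr10:97967091-97967340: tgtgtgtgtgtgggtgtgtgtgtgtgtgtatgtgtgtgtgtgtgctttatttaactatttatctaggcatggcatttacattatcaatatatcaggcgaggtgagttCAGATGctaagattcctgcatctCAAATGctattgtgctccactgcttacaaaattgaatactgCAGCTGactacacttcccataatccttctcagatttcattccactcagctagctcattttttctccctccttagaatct
The Fibcd1 window held no CANNTG. The Gm10754 window held 3, one of which was CAGATG and one CAGCTG. Among all 32851 RefSeq promoter windows of this length, 66.2% held a CANNTG, as did 4 of the 8 windows of the 7 rule genes. Such a match describes the letters and is not evidence of a bound site.

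Outside the rule, the genes with the largest fold over both CA3-like and dentate granule-like cells in each library again describe the class and were not tested, as holds for every comparison with CA3-like and dentate granule-like cells here, since the cells were chosen by their transcripts. Kcnh7, an ERG-type potassium channel, was at 20.5 in wild-type and 16.1 in knock-in CA1-like cells, and at 1.81 and 1.95 in CA3-like cells. Ndst3, a heparan sulfate sulfotransferase, was at 4.55 and 4.93, against 0.33 and 0.43 in CA3-like cells. Others of that kind were Gm2164 (7.59 and 7.36), the copine Cpne8 (3.69 and 3.98), Gm30382 (3.40 and 3.38), the latrophilin Adgrl2 (2.37 and 2.46), Stac (1.62 and 1.46), Gm28175 (1.42 and 1.22) and the phosphodiesterase Pde11a (1.17 and 1.79). The 15 leading genes by this measure, 5 of the rule's genes among them, had levels 5.62 to 14.5 times those of the higher of the other classes.

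**Figure D1:**
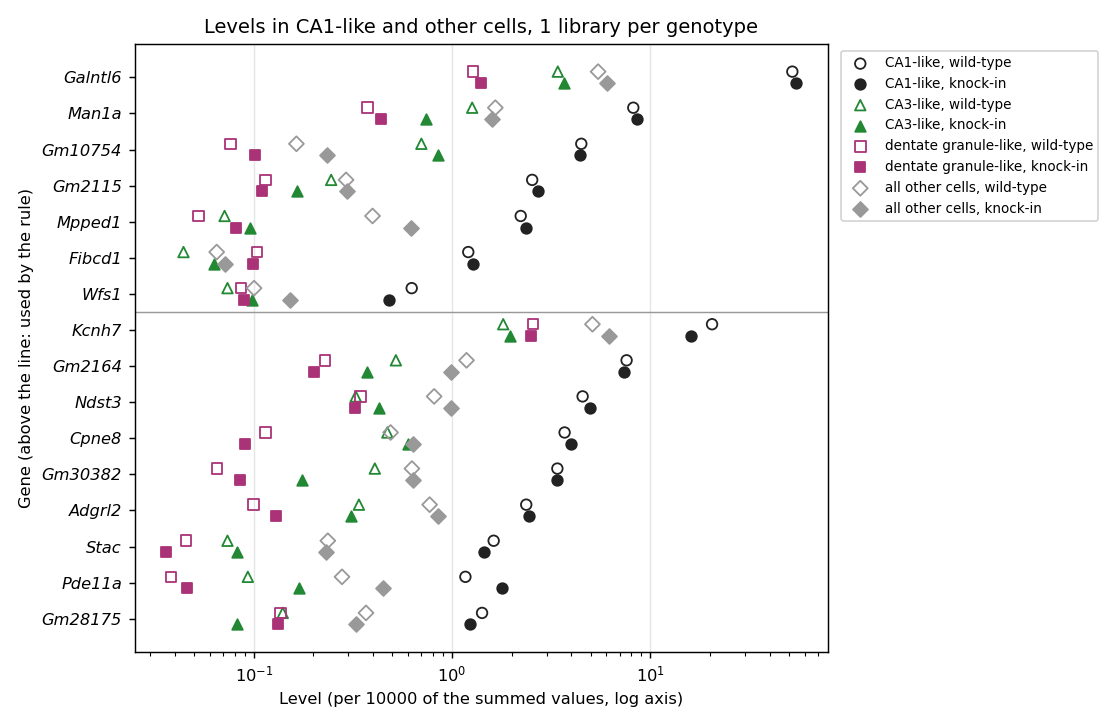
Level of 16 genes (rows; those above the line were used by the rule) per 10000 of the summed values on a log axis, in CA1-like cells (circles), CA3-like cells (triangles), dentate granule-like cells (squares) and all other cells (diamonds), open for the wild-type and filled for the knock-in library. The circles lie to the right of all other symbols for every gene, for example at 52.0 and 54.3 for Galntl6, and open and filled circles lie close together except for Wfs1, Kcnh7 and Pde11a.

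The label was checked against markers that the rule did not use. Itpka, a kinase of inositol phosphate signalling in dendritic spines, was at 1.84 and 1.96 in CA1-like cells and at 0.45 and 0.46 in CA3-like cells. Pou3f1, a transcription factor, was at 0.67 and 0.79, against 0.08 and 0.09. Camk2a, the kinase subunit of excitatory synapses, was at 15.6 and 15.1, and Slc17a7, the vesicular glutamate transporter, at 2.00 and 2.10. Both belong to a list of 10 pyramidal neuron markers that set CA1-like cells little apart. The list summed to 30.95 and 30.94 in CA1-like, 25.7 and 24.3 in CA3-like and 24.1 and 22.4 in dentate granule-like cells. Of the 8 CA1 markers outside the rule that the table holds, none was at 0, and their summed level was 5.16 and 5.54. The same sum was 1.98 and 1.78 in CA3-like and 1.92 and 2.04 in dentate granule-like cells. None of the markers of other cells was at 0 either. Sums of different lists hold different genes and are not compared with each other. The 5 choroid plexus and fibroblast markers summed to 3.90 and 7.20, the 8 CA3 markers to 4.80 and 5.04, the 8 dentate granule markers to 3.51 and 3.26, the 7 microglia markers to 2.33 and 2.64, the 12 interneuron markers to 1.59 and 1.68, the 6 oligodendrocyte markers to 2.44 and 2.50, and the 6 astrocyte markers to 2.55 and 2.79. In the classes chosen by them, the CA3 markers summed to 31.0 and 30.6 and the dentate granule markers to 52.4 and 52.9. Within CA1-like cells, markers of CA2 summed to 0.45 and 0.50, and the 3 of the subiculum to 0.10 and 0.14. Of the members, 78 wild-type (8.06%) and 103 knock-in cells (9.15%) had at least 2 of 12 markers of glia, vessels and choroid plexus at 2 or more.

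The edge of the rule was graded. Cells with 2 of the 7 markers, otherwise passing, numbered 620 (wild-type) and 711 (knock-in), and cells with 3 numbered 240 and 243. The rule markers summed to 12.7 and 12.5 just outside and to 44.3 and 46.6 just inside, and reached 83.4 and 83.2 in cells with 5 markers. Of the cells just inside, 17.9% and 18.9% also had at least 3 of the 8 CA3 markers at 2 or more, a share of 0.70% and 0.99% in cells with 5. The requirement for Zbtb20 removed 127 wild-type and 286 knock-in cells that had passed the other steps, which turned the order of the shares.

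Within the class, Galntl6 separated a smaller set of cells, a split made after the values had been seen. Galntl6 was below 10 in 123 wild-type (12.7%) and 126 knock-in members (11.2%), and at 20 or more in 792 and 944. In the wild-type library the low cells also had fewer detected genes, with a median of 2872 against 4171.5 in the high cells, and in the knock-in library the medians were 3987.5 and 4289.5. Median totals were 8468 against 9948.5 and 9591 against 9977. The part of this in the values below was not tested. The low cells had Spock1, a proteoglycan gene, at 5.89 and 8.26, against 0.36 and 0.65 in the high cells. Grik4, a kainate receptor subunit of CA3, was at 6.14 and 6.10 in the low cells and 1.07 and 1.20 in the high ones. Cpne4, a CA3 marker, was at 3.22 and 3.08 against 0.21 and 0.26. Across cells Galntl6, a gene of the rule, varied with the A-type potassium channel Kcnd2 (Pearson's r 0.71 in 968 wild-type and 0.70 in 1126 knock-in cells) and against Spock1 (-0.51 and -0.56). Members with at least 3 CA3 markers at 2 or more, 54 wild-type (5.58%) and 65 knock-in (5.77%), had Spock1 at 11.1 and 13.9. The remaining members had Spock1 at 0.56 and 0.94. Without the CA3-marker members r was 0.69 and 0.66 for Kcnd2 and -0.37 and -0.45 for Spock1. Cells of a library share its preparation, and these correlations are descriptions.

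A further gradient ran along Pde11a, which was at 2 or more in 234 wild-type members (24.2%) and 355 knock-in members (31.5%) and at 0 in 607 and 644. Prkca, protein kinase C alpha, was at 10.2 and 10.1 in the cells with Pde11a at 0 and at 4.56 and 4.02 in those at 2 or more. The Eph receptor Epha10 was at 2.62 and 2.61 in the former and 0.61 and 0.52 in the latter. The neurexin Nrxn3 was at 57.2 and 45.3 in the cells without Pde11a and at 34.4 and 24.4 in those with it. In the other direction, the teneurin Tenm2 was at 37.7 and 35.5 against 56.6 and 53.2, the adhesion gene Cadm1 at 4.93 and 5.80 against 8.84 and 10.4, and the ventral gene Dcn at 0.08 and 0.12 against 0.44 and 0.60. Wfs1 was at 0.73 and 0.60 against 0.42 and 0.30. The direction along Pde11a was the same in both libraries for each of these genes, also without the members with at least 3 CA3 markers. Without them Prkca was at 10.0 and 9.58 against 4.57 and 3.78. Among all members, cells with Pde11a at 0 had medians of 4078 and 4174.5 detected genes, against 4288 and 4454 at 2 or more. Their Galntl6 was at 46.7 and 47.9, against 61.7 and 63.6. The part of detected genes in this gradient was not tested.

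**Figure D2:**
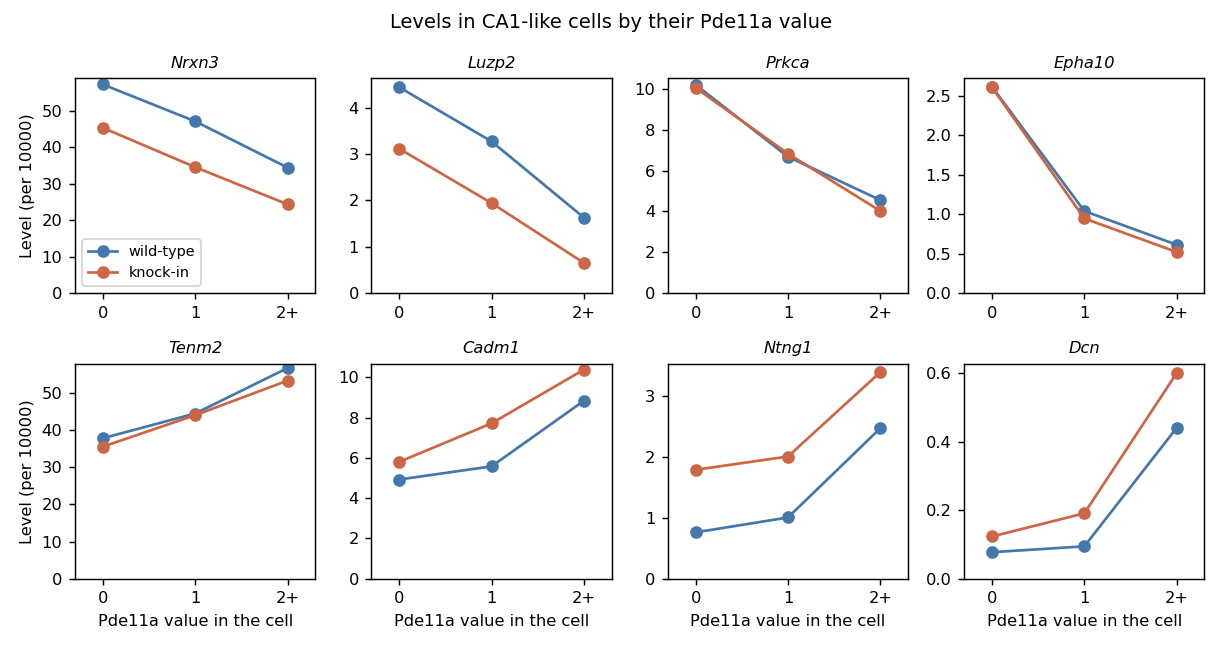
Level per 10000 (vertical axes, from 0) of 8 genes in CA1-like cells grouped by their Pde11a value (0, 1, or 2 and more, horizontal axes), wild-type in blue and knock-in in orange, with no replicate and so no error bar. Nrxn3, Luzp2, Prkca and Epha10 are lower toward the right and Tenm2, Cadm1, Ntng1 and Dcn higher, while the libraries stand apart at every step for Nrxn3, Luzp2 and Ntng1 and nearly coincide for Prkca and Epha10.

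Wfs1 is a gene of the rule, so its values in these cells are shaped by their selection and are a description only. It was at 2 or more in 12.5% of wild-type and 7.46% of knock-in members. After thinning of the depth-corrected values, which does not match sequencing depth, the shares at 2 or more were 2.89% and 1.60%. Those above 0 were 22.4% and 16.6%. The ventral list has 6 genes, of which 3 had a mean level of at least 0.2. In the knock-in library all 3 were higher, and the median of their log2 ratios was 0.46. The median was 0.14 in members with Pde11a at 0. Etv1, a transcription factor, was at 1.02 and 1.45, the serotonin receptor Htr2c at 0.63 and 0.75, and Dcn at 0.17 and 0.28. The ratio of Htr2c, 0.22, was -0.44 when 2 rule markers were enough and -0.20 among members with Wfs1 at 2 or more. Gpc3, a ventral gene just below the level limit, was at 0.215 and 0.178, a log2 ratio of -0.18. With 1 added to the levels the median was 0.14. Calb1, the calcium-binding protein of superficial CA1 cells, was at 0.41 in both libraries. The part of the dissection along the long axis in these values was not tested.

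For the comparison of the genotypes across genes, a gene was counted when its log2 ratio was at least 1 in absolute size, its level reached 1 in a library, and at least 10% of that library's CA1-like cells had a value above 0. Of 1905 genes compared, 9 were past this size rule (0.472%), 6 of them higher in knock-in cells (0.315%) and 3 lower (0.157%). Over all 1905 genes the median log2 ratio was -0.05, and 34 genes (1.78%) had a ratio of at least 0.5 in absolute size. CA3-like cells had 15 of 2056 genes past the same rule (0.73%), and dentate granule-like cells 9 of 2040 (0.441%). This rule has no error rate.

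Pigv, the edited gene, was examined first. Its level in CA1-like cells was 0.055 (wild-type) and 0.063 (knock-in), with a value above 0 in 5.06% and 5.77% of them. This level could not check the labels, since the values do not tell the alleles apart.

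Abl1, the gene of a non-receptor tyrosine kinase that acts on the actin cytoskeleton and is named in the study's title with Eph signalling, was at 7.01 in wild-type CA1-like cells and at 0.53 in those of the knock-in. The median cell had an Abl1 value of 6 (wild-type) or 0 (knock-in), and 95.9% against 9.68% of cells had a value of 2 or more. The quartiles were 4 and 9 in wild-type cells and 0 and 1 in knock-in cells, so the quartile ranges did not overlap although the full ranges, 0 to 31 and 0 to 10, did. The log2 ratio was -3.50. It lay between -4.40 and -2.39 over the alternative settings, and at -3.66 in CA3-like and -2.68 in dentate granule-like cells. Abl1 lies on chromosome 2 from 31688376 to 31804227 on the plus strand (GRCm38, GENCODE M21). Abl2, the paralog of Abl1, was at 2.00 and 1.90.

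Tshz2, a zinc finger transcription factor gene, was at 1.96 and 0.43, a log2 ratio of -1.97. Over the alternative settings the ratio lay between -2.48 and -1.03. Tshz2 was above 0 in 76.9% of wild-type and 7.10% of knock-in members. In CA3-like cells its ratio was -1.18 and in dentate granule-like cells -2.21, whereas over all cells of the libraries together it was -0.47. Sec22b, a SNARE protein of traffic between endoplasmic reticulum and Golgi, was at 7.87 and 3.76, a log2 ratio of -1.04, with cell medians of 7 and 3. The ratio of Sec22b was -1.01 in CA3-like cells, -1.05 in dentate granule-like cells and -1.12 over all cells.

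The 2 genes with the largest ratios were Hdc and Gm14216. Hdc, histidine decarboxylase, the enzyme that makes histamine, was at 0.093 (wild-type) and 7.92 (knock-in), which gave a log2 ratio of 5.38. The median cell had an Hdc value of 0 (wild-type) or 7 (knock-in), and 7 wild-type cells (0.72%) against 1092 knock-in cells (97.0%) had a value of 2 or more. The long noncoding RNA Gm14216 followed the same pattern, at 0.082 and 7.59, a log2 ratio of 5.40, with no wild-type cell and 97.1% of knock-in cells at 2 or more. Since the 0.1 added exceeds both wild-type levels, these ratios depend on it. Over the alternative settings they ran from 3.03 to 6.48 for Hdc and from 2.99 to 6.72 for Gm14216. In CA3-like cells the ratios were 5.34 and 5.35. The 78 wild-type members with Hdc above 0 differed from the rest in the number of genes detected. The 71 of them at a value of 1 had a median of 2264 genes, against 4183 in the 890 at 0, and 70 of the 71 also had Gm14216 above 0. Within knock-in members at an Hdc value of 2 or more the median was 4282.5 genes.

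The other 4 higher genes had smaller ratios. Gm17660, annotated as protein coding, was at 0.33 and 1.57 (log2 ratio 1.97). Rab40b, a small GTPase, was at 1.08 and 2.62 (1.20), and 28.2% against 72.9% of cells had a value of 2 or more. Mapk14, the stress-activated kinase p38 alpha, was at 1.57 and 3.32 (1.03), with cell medians of 1 and 3. Without the members that had at least 3 CA3 markers, Mapk14 was no longer past the size rule, a setting added after the data had been seen. Ptgds, prostaglandin D2 synthase, a secreted product of choroid plexus and meninges, was at 0.64 and 1.60 (1.19). None of these differences was particular to CA1-like cells. In CA3-like cells the ratios of Gm17660, Rab40b, Mapk14 and Ptgds were 2.13, 1.43, 1.06 and 1.03. In dentate granule-like cells they were 1.68, 0.99, 0.74 and 1.34, and over all cells 1.71, 1.06, 0.89 and 0.97.

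**Figure D3:**
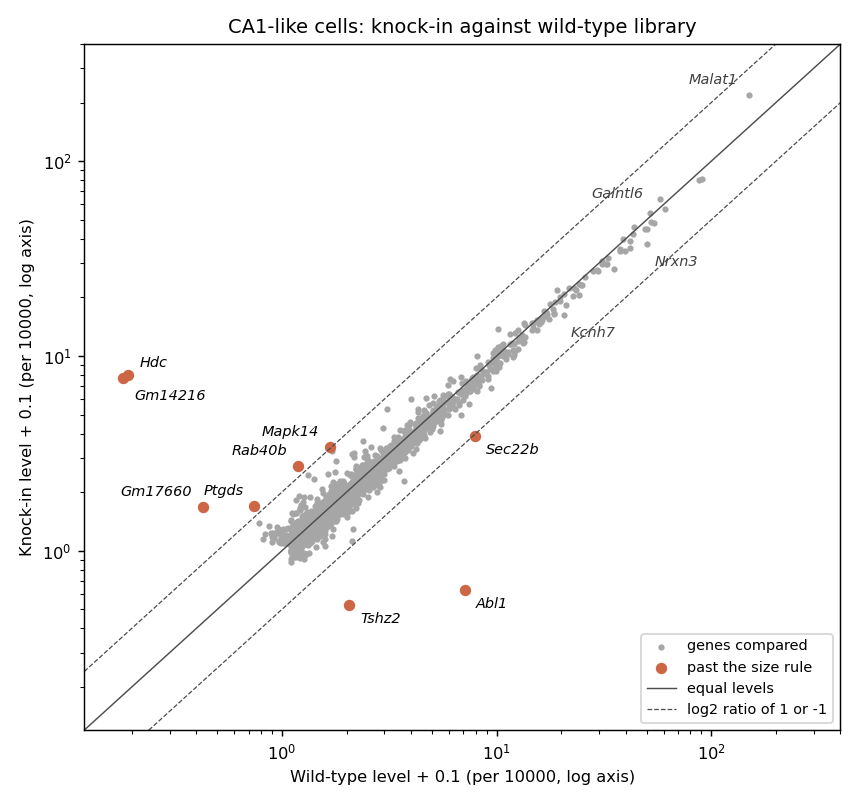
Knock-in against wild-type level in CA1-like cells, 0.1 added, both axes logarithmic per 10000, for the 1905 genes compared (grey points) with the 9 past the size rule in orange. Hdc and Gm14216 stand far above the line of equal levels and Abl1 and Tshz2 far below it, while Rab40b, Mapk14, Ptgds and Sec22b lie near the dashed lines at log2 ratios of 1 and -1.

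Ptgds belongs to a list of choroid plexus and fibroblast markers whose sum was also higher in the knock-in library. The 5 markers of that list summed to 3.90 (wild-type) and 7.20 (knock-in), and Ttr, the transthyretin of choroid plexus, was at 2.99 and 5.27, a log2 ratio of 0.80. The direction of Ttr depended on the cells taken. Its ratio was -1.94, past the size rule as lower, with rule markers required at 3 or more, and -0.74 among members with Wfs1 at 2 or more. It was past the rule as higher, at 1.02 when 2 rule markers were enough and at 1.39 among members with Pde11a at 0. A few cells held most of the Ttr. The 10 highest of them carried 80.2% of the sum in wild-type cells and 84.5% in knock-in cells, and without these the Ttr level was 0.60 and 0.83. Ptgds was spread more widely, with 25.6% and 23.1% of its sum in the 10 highest cells and 0.48 and 1.24 without them. In all other cells of the libraries, Ptgds stood at 5.30 and 9.64 and Ttr at 35.2 and 25.6. The part of RNA from other cells in the Ptgds values was not tested.

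**Figure D4:**
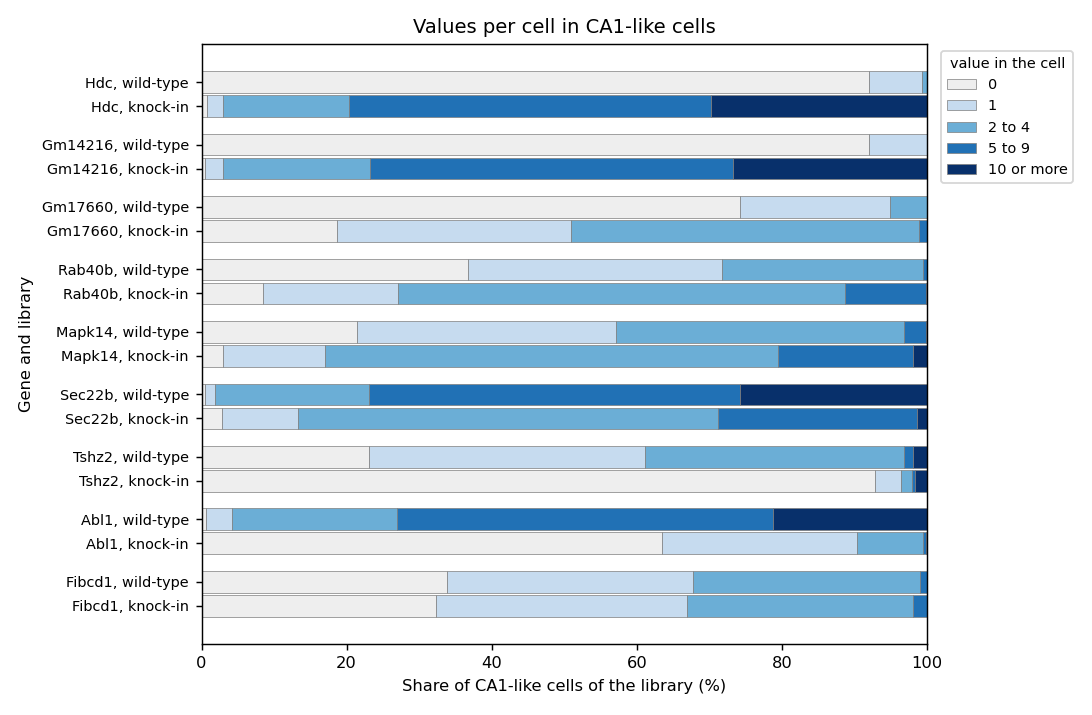
Share of CA1-like cells of each library (horizontal axis, percent) whose value for a gene was 0, 1, 2 to 4, 5 to 9, or 10 and more (pale to dark), for 9 genes with the wild-type bar above the knock-in bar. Hdc and Gm14216 are pale for wild-type and dark for knock-in cells, Abl1 is the reverse, Sec22b and Mapk14 differ by a smaller amount, and the bars of Fibcd1 nearly match.

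By location, 5 of the 9 genes lie on chromosome 2: Abl1, Tshz2, Ptgds, Hdc and Gm14216. Chromosome 2 held 171 of the 1905 genes compared (8.98%). On that chromosome Ptgds starts at 25466709, Abl1 at 31688376, Hdc at 126593667, Gm14216 at 154722352 and Tshz2 at 169633013. Pigv lies on chromosome 4, which held none of the 9. This count was made after the values had been seen.

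Genes just short of the size rule are named here with that knowledge. Ntng1, the GPI-anchored adhesion protein netrin-G1, was at 1.22 and 2.33, a log2 ratio of 0.88. Slc12a8, a transporter, was at 1.61 and 3.16, with cell medians of 1 and 3. The ratio of Slc12a8 was 0.93, against 1.09 in CA3-like cells, 0.87 in dentate granule-like cells and 0.78 over all cells. On the lower side the cadherin Cdh18 was at 2.01 and 1.02 (-0.91), Fstl4 at 2.04 and 1.19 (-0.72) and Luzp2 at 3.59 and 2.19 (-0.69). In CA3-like cells the ratio of Luzp2 was -1.09, that of Ntng1 0.50 and that of Cdh18 -0.85, and in dentate granule-like cells they were -0.22, -0.27 and -1.10. Over all cells of the libraries they were 0.00, 0.13 and -0.30.

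The ratios of these genes also depended on which members were taken. Among cells with Pde11a at 0 the log2 ratio of Luzp2 was -0.50, that of Nrxn3 -0.34 and that of Ntng1 1.13. Among cells at 2 or more they were -1.20, -0.50 and 0.44. In the 121 wild-type and 84 knock-in members with Wfs1 at 2 or more, the ratio of Luzp2 was -0.11. That of Ntng1 was -0.22 there, at low levels of 0.42 and 0.35. Abl1 and Hdc had ratios of -3.64 and 5.23 at Pde11a 0 and -3.20 and 5.64 at 2 or more. Of these subsets, Ntng1 was lower in the knock-in library only at Wfs1 of 2 or more, where few cells and low levels limit the ratio. Abl1 was lower and Hdc higher in the knock-in library in each.

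Glutamate receptors were examined next, since they carry the input of these cells. None of the AMPA, NMDA, kainate or metabotropic receptor genes was past the size rule. Gria1, the AMPA receptor subunit tied to plasticity, was at 28.2 and 27.4 in CA1-like cells, against 19.7 and 17.7 in CA3-like cells. Gria2, the subunit that blocks calcium entry, was at 13.4 and 14.4. Of the 4 AMPA subunits 2 had a ratio above 0 and 2 below, with a median log2 ratio of 0.03. The NMDA subunit Grin2a was at 33.1 and 31.7, Grin2b at 19.7 and 20.03 and the obligatory subunit Grin1 at 3.68 and 3.46, and the median over 5 subunits was 0.02. As background for all lists, the 7863 genes at a level of 0.2 or more had a median of 0.02, and 54.1% of them had ratios above 0. The 1905 genes of the size rule, to which most synaptic and channel genes belong, had a median of -0.05 and ratios above 0 in 35.7%.

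Grik4 is among the markers that chose the CA3-like cells, so its difference from them is a description only. It was at 1.77 and 1.86, against 12.2 and 11.9 in CA3-like cells, and its auxiliary subunit Neto1 at 1.26 and 1.24, against 4.08 and 4.56. Among metabotropic receptors Grm5, the group I receptor coupled to calcium release, was at 24.1 and 23.3, against 17.6 and 16.8 in CA3-like cells. Grm3 was at 1.16 and 0.83, a log2 ratio of -0.44. Of 12 GABA receptor genes at a level of 0.2 or more, 9 had a ratio below 0, with a median of -0.05. The median was also -0.05 over the 1905 genes, to which 9 of the 12 belong, and 0.02 over the 7863 genes. Gabrg3 was at 6.24 and 5.92, against 2.45 and 2.89 in CA3-like cells, and Gabra5, the subunit of extrasynaptic receptors in hippocampal pyramidal cells, at 2.01 and 2.15.

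Postsynaptic scaffold genes had ratios below 0 in 13 of 15 cases, with a median log2 ratio of -0.16 and a range from -0.23 to 0.11. Of the 15 genes, 13 were among the 1905 of the size rule, where 35.7% of ratios were above 0 and the median was -0.05. Dlg2 (PSD-93) was at 52.1 and 48.9, Dlgap1 at 37.5 and 34.4, and Homer1, which links metabotropic receptors to the scaffold, at 4.28 and 3.65. Shank1 was at 8.23 and 8.89. The median of the same list was -0.15 in CA3-like and -0.11 in dentate granule-like cells. All 15 ratios were below 0.5 in absolute size. Vesicle and active zone genes had a median of -0.08, with 14 of 20 below 0, and 14 of the 20 were among the 1905 genes. The calcium sensor Syt1 was at 23.4 and 21.8.

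Channel genes gave the class part of its profile. Kcnd2, the A-type channel of CA1 dendrites, was at 32.3 and 29.5, against 17.7 and 14.5 in CA3-like cells, and its partner Kcnip4 at 87.6 and 79.8. Kcnq3, a subunit of the M-current channel, was at 9.31 and 6.79 (log2 ratio -0.45), and at 6.02 and 4.26 in CA3-like cells. The calcium channel subunit Cacnb2 was at 18.97 and 21.8, against 9.26 and 9.07 in CA3-like cells. Of 24 genes of potassium and related channels 16 had ratios below 0, with a median of -0.06, and of 21 sodium and calcium channel genes 14 did, with a median of -0.04. None was past the size rule. Of these genes, 18 and 13 were among the 1905, where 35.7% of ratios were above 0. Among the 7863 genes at the level of 0.2, by which the lists were taken, 54.1% were above 0.

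Among synaptic adhesion genes, Nrxn3 was at 50.2 and 37.4, a log2 ratio of -0.43, and Cntnap2 at 49.1 and 44.7. The median over 11 genes was -0.02. Lrrtm4, a postsynaptic partner of heparan sulfate proteoglycans, was at 4.58 and 4.97, against 22.6 and 20.1 in CA3-like and 60.9 and 50.1 in dentate granule-like cells. Protein kinase C beta, Prkcb, was at 10.2 and 10.4, against 5.14 and 4.49 in CA3-like and 2.53 and 2.26 in dentate granule-like cells.

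GPI anchor synthesis was examined because Pigv belongs to it. Of 29 genes of the pathway in the table, 17 had a mean level of at least 0.2, 11 with a ratio above 0 and 6 below, and the median was 0.09. Only Pigk, the protease subunit of the transamidase that attaches the anchor, entered the size rule, at 10.6 and 11.4, and it was not past it. Of 29 genes of GPI-anchored proteins at that level, 16 were above 0 and 13 below, with a median of 0.02. Lsamp was at 90.7 and 81.2, Opcml at 41.6 and 35.6 and Ntm at 18.4 and 16.4, all of the IgLON family, and the glypican Gpc5 was at 9.06 and 9.19. Ly6h, a Ly6 protein that acts on nicotinic receptors, was at 1.66 and 2.45 (0.54), and Ntng1 had the highest ratio of the list. The values are transcript levels and do not show whether the proteins carried their anchor.

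Of 9 Eph receptor genes, 8 had ratios below 0, with a median of -0.13 and none past the size rule. Of the 9, 7 were among the 1905 genes of the size rule, where 35.7% of ratios were above 0 and the median was -0.05. Among the 7863 genes at the level of 0.2, 54.1% were above 0. Epha6 was at 49.9 and 44.7, against 29.4 and 21.2 in CA3-like cells, Epha5 at 9.53 and 9.06, Epha7 at 7.01 and 6.12 and Epha4 at 5.92 and 5.45. Ephb2 had the lowest ratio, -0.49, at 1.17 and 0.80. The list's median was -0.24 in CA3-like and -0.16 in dentate granule-like cells. Of the 16 genes of Abl kinases, adaptors and targets at this level, 12 had ratios below 0, with a median of -0.08. Abl1 was the only one past the size rule, and 8 of the 16 were among the 1905 genes. The adaptors Abi1 (2.04 and 1.99) and Abi2 (2.97 and 2.88) and the actin regulator Wasf1 (3.25 and 3.61) were within a log2 ratio of 0.15.

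**Figure D5:**
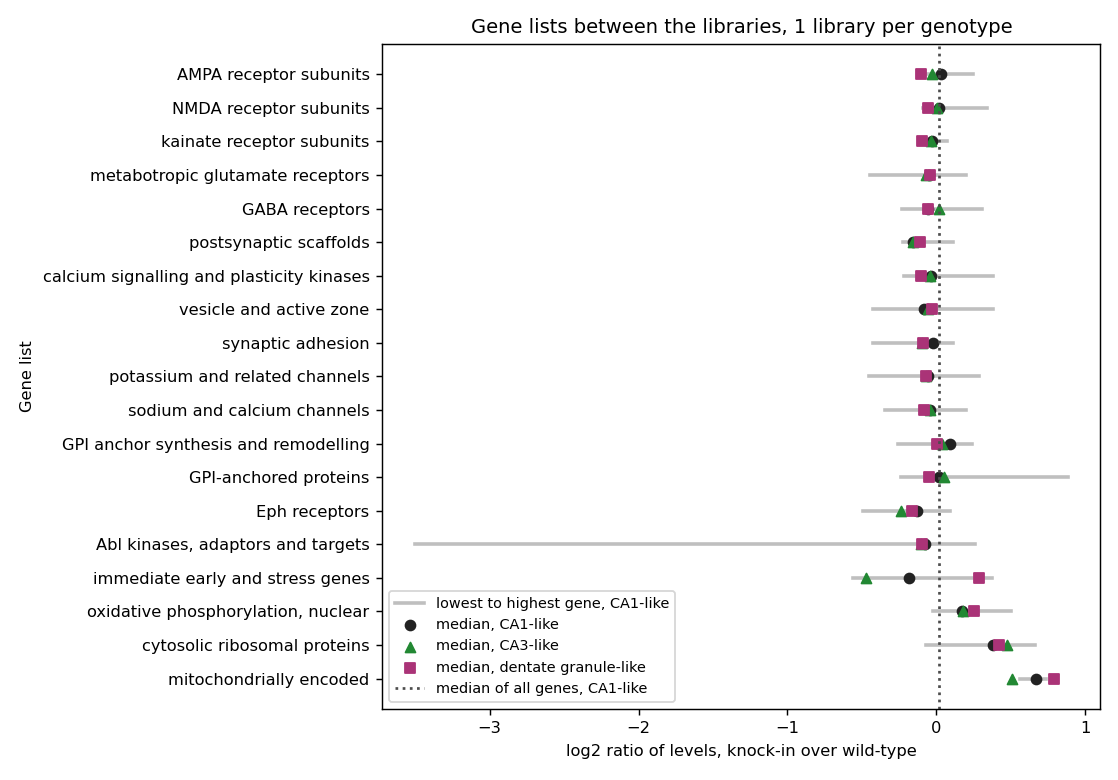
Median log2 ratio (knock-in over wild-type, horizontal axis) of 19 gene lists in CA1-like cells (circles), CA3-like cells (triangles) and dentate granule-like cells (squares), with grey bars from the lowest to the highest gene in CA1-like cells and a dotted line at the median of all genes. Medians of the synaptic, channel and GPI lists lie within 0.25 of 0, those of ribosomal and mitochondrially encoded genes lie to the right at 0.38 and 0.67 in CA1-like cells, and the long bar of the Abl list ends at Abl1.

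All 6 genes of the mitochondrial genome with a level of 0.2 or more were higher in knock-in cells, the median of their log2 ratios was 0.67, and mt-Cytb was at 2.06 and 3.09. Per CA1-like cell, mitochondrial genes took a median share of 0.020% and 0.060% of the values. Genes such as Gm28437 and Gm10925 had ratios of 0.59 and 0.53 and are near copies of mitochondrial sequence, so reads could be split between them. Of 54 cytosolic ribosomal protein genes 52 had ratios above 0, with a median of 0.38, and of 23 nuclear genes of oxidative phosphorylation 21 did, with a median of 0.17. The medians of these lists were also above 0 in CA3-like cells (0.51, 0.48 and 0.18) and dentate granule-like cells (0.79, 0.42 and 0.26). The part of cell or RNA quality in these values was not tested. Malat1, a nuclear noncoding RNA, was also higher, at 149.9 and 219.5, a log2 ratio of 0.55, with cell medians of 124 and 197. Its ratio was 0.47 in CA3-like and 0.39 in dentate granule-like cells. The list of 7 nuclear noncoding RNAs that holds Malat1 had 4 ratios above 0 and 3 below, with a median of 0.03.

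Of 9 immediate early and stress genes at a level of 0.2 or more, 7 had ratios below 0, with a median of -0.18, against -0.47 in CA3-like and 0.28 in dentate granule-like cells. The orphan receptors Nr4a1 (0.64 and 0.47), Nr4a2 (0.54 and 0.34) and Nr4a3 (0.67 and 0.44), which neuronal activity induces, were among the lower. None entered the size rule.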

How the data were processed

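Members and gene lists were chosen with earlier results of these data known. The deposited table holds whole-number scores for 30223 genes in 15930 cells. They were treated as depth-corrected scores and not as counts, because totals per cell lay between 4846 and 14501. Per the submitters' processing notes, Seurat 3.0.0 and GRCm38 were used by the authors, with no role given. The aligner, cell filter and any removal of doublets are not given in the sources used here. Cells were assigned to libraries by the prefix of their names. All values were computed with scanpy 1.11.5, pandas 2.3.3 and numpy 2.4.6 in Python 3.11.15, and the gene comparison was tested on simulated data. List medians leave out genes whose mean level is below 0.2. CA3-like cells did not pass the CA1-like rule, had at least 3 of 8 CA3 markers at 2 or more and met the same exclusions. Of them, 8.00% (wild-type) and 8.11% (knock-in) had at least 3 of 12 interneuron markers at 2 or more. Dentate granule-like cells had Prox1 at 2 or more and at least 3 of 7 markers. Among these, 23.9% and 26.8% had at least 3 of 6 oligodendrocyte markers at 2 or more. Doublets were called with Scrublet per library on the depth-corrected values, at an expected rate of 6%. Genes were named when used by the rule, past the size rule, among the 15 most raised over CA3-like and dentate granule-like cells, or among the 5 highest of a list. Ntng1, Slc12a8, Cdh18, Fstl4, Luzp2, Nrxn3, Ly6h, Ephb2, Nr4a1, Nr4a2, Malat1, Spock1, Cpne4, Prkca, Epha10, Tenm2, Cadm1, Gm28437, Gm10925 and other genes outside these rules were named after their values were seen. Positions are those of GENCODE M21. 17 planned and 2 added alternatives were run. Values of some genes are not reported here.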

Additional observations from a re-analysis of the deposited data

How the results depend on the processing

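No paired analysis was possible because each genotype has 1 library, whose replicate number is only a name. Over 17 planned and 2 added alternatives none of the 9 genes past the size rule changed sign, and Abl1, Hdc and Gm14216 were past the size rule in each that applies it. The share of CA1-like cells in the wild-type and knock-in library was 10.3% and 9.99% with at least 4 of 7 markers, 22.4% and 20.8% with at least 2, 10.9% and 10.4% with markers at 3 or more, 12.5% and 11.6% without members with markers of other cell types, and 1.71% and 0.95% for Wfs1 at 2 or more. Without members with CA3 markers the knock-in share was 12.01%. Genes past the size rule numbered 11 higher and 6 lower among Wfs1 cells, 10 higher with values of 1 set to 0, 2 higher with 1 added, 6 lower with a level of at least 0.5, and 14 higher and 9 lower with no limits. Mapk14 and Ptgds dropped out with at least 2 markers, Sec22b and Ptgds among Wfs1 cells, Mapk14 without CA3-marker members, Gm17660, Ptgds and Tshz2 with a level of at least 2, and Sec22b, Gm17660, Rab40b, Ptgds and Mapk14 with 1 added. Ttr, not past the size rule with all members, was past it as lower with markers at 3 or more and as higher with at least 2 markers and at Pde11a 0, and its log2 ratio ran from -1.94 to 1.39. The mitochondrially encoded median was 0.83 with at least 4 markers, 0.41 with at least 2, 0.78 without other-type members, 0.58 as a mean over cells, 0.77 with values of 1 at 0, 0.75 with 0.01 added, 0.41 with 1 added and 0.55 at Pde11a 0. The ribosomal median was 0.055 with at least 2 markers, 0.74 among Wfs1 cells, 0.52 with 0.01 added and 0.11 with 1 added. The kainate receptor median was -0.26 among Wfs1 cells and the immediate early median -0.54 with values of 1 at 0. The ventral median was 0.14 with 1 added, 0.28 with list genes from 0.05 and 0.14 at Pde11a 0. The cause of these shifts was not tested. The 2 added alternatives, members without CA3 markers and those with Pde11a at 0, were chosen after seeing the data. Depth per cell was unknown, and intervals cover counting error only.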

Other observations

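Some of the genes that differed most between the libraries varied with Malat1 from cell to cell in the library where they were high. In knock-in CA1-like cells Hdc had a Pearson's r of 0.73 with Malat1 and Gm14216 one of 0.75 over 1126 cells. In the 968 wild-type cells, where both genes were near 0, the same values were 0.09 and 0.08. Abl1 had the opposite arrangement, with 0.61 in wild-type and -0.16 in knock-in cells. Sec22b varied with Malat1 in both, at 0.73 and 0.60. Hdc and Gm14216 varied with each other at 0.97 in wild-type cells, 890 of which had Hdc at 0, and at 0.70 in knock-in cells. Cells of a library share its preparation and the deposited depth correction, and these values are descriptions.

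C1qa and C1qb, complement genes of microglia, varied together within CA1-like cells at r of 0.85 (wild-type) and 0.81 (knock-in), and 7 microglia markers summed to 2.33 and 2.64 per 10000. In the wild-type library the 10 cells with the highest C1qa values held 65.5% of its sum in the class, and in the knock-in library 42.2%.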
